A study of Mus musculus with 4 samples.

Results

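The 10 genes described here encode receptors and regulators that restrain T cells after repeated antigen contact: Pdcd1, Ctla4, Lag3, Havcr2, Tigit, Cd160 and Btla are inhibitory receptors, Entpd1 is an ectoenzyme, and Tox and Nr4a2 are transcription factors. They were taken by name, as all non-control spots whose accession mapped to 1 of these symbols. This gave 15 probes, 1 spot each, among 56605 probes and 22911 named genes on the array. Every T cell that has met its antigen switches on some of these receptors, which carry inhibitory signals against those of the T-cell receptor and of CD28. When antigen persists, as in a tumor, their expression is held high, and Tox and the NR4A factors, which are induced through NFAT, maintain that state, known as exhaustion. CD39, the product of Entpd1, breaks down extracellular ATP on the way to adenosine, which itself dampens T cells, and it is also made by endothelium, macrophages, B cells and regulatory T cells.

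The arrays came from tumors grown in 8-week-old C57BL/6Ncr mice, either wild type (Wt) or Sipa1 knockout (Sipa1-/-), collected on day 12 after Bcr-abl+ hematopoietic progenitor cells (HPCs) had been placed under the skin in Matrigel. Sipa1 encodes a GTPase-activating protein that turns off Rap1, a switch for cell adhesion, and the leukemic cells themselves carried GFP and came from Wt marrow. From each genotype, host CD8+ T cells (GFP– TCRb+ CD8+) and a stromal fraction called mesenchymal stroma cells or MSCs (GFP– CD45– Ter119– CD31–) were sorted, and each of the 4 RNAs was hybridised to 1 one-colour Agilent array. The study used 5 mice per genotype, and the sources used here do not say whether the RNA of an array was pooled over them. With 1 array per condition there is no replicate and no test, so every ratio below describes a pair of arrays and not the spread between mice. The 4 comparisons share arrays, so they are not independent of one another. Values are log2 signals relative to the 75th percentile of the array. Each ratio compares the same probes across arrays, never a probe with another probe. The summed marker levels below add signals of different probes, so the part of 1 gene in a sum also depends on its probes.

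Both Sipa1 probes were lower on the Sipa1-/- arrays, at 3.43 and 5.40 in Wt against 1.39 and 3.73 in Sipa1-/- CD8+ T cells, and at 3.05 and 5.03 against 1.46 and 3.78 in MSCs. Both stayed well above background in the knockout, and where they lie relative to the deleted part of the gene is not given. All 12 T-cell markers were well above background on both CD8+ T arrays and summed to 605 and 630 times the 75th percentile. All 10 fibroblast markers were so on both MSC arrays, with sums of 988 in Wt and 1660 in Sipa1-/-. The MSC sort also held RNA of other cells: B-lineage markers summed to 684 in Wt and 41.9 in Sipa1-/- MSCs, erythroid markers to 368 and 386, granulocyte markers to 711 and 797, and T-cell markers to 21.6 and 4.78. Cd2 was the largest part of the T-cell sum in Wt MSCs, at a log2 signal of 4.08 against 0.56 in Sipa1-/-, whereas the CD3 and CD8 chains measured on both MSC arrays were higher in Sipa1-/-. Between 60.3 and 65.3% of non-control spots were well above background, and no spot was saturated.

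The promoters of 8 of the 10 genes were found in RefSeq (GRCm38.p6), in 10 windows from 250 bases before to 50 after a transcription start. Lag3 and Tox are not in that table. The 250 bases before the start are shown for Pdcd1 and Havcr2, inhibitory receptors whose probes were higher in both Sipa1-/- sorts, and for Btla, whose probes were lower in both. Capitals mark matches on either strand to GGAAA (the core bound by NFAT), AGGTCA (a half-site for nuclear receptors, which the NR4A factors bind in extended form) or TGTGGT (the RUNX core), motifs that were chosen after the values were seen and do not overlap one another in these windows.
Pdcd1 (chr1:94052554-94052803, minus strand): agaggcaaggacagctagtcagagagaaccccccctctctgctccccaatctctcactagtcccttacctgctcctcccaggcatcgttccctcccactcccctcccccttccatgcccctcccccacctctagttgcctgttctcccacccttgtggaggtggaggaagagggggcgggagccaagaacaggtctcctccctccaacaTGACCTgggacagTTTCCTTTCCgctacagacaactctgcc
Havcr2 (chr11:46454681-46454930, plus strand): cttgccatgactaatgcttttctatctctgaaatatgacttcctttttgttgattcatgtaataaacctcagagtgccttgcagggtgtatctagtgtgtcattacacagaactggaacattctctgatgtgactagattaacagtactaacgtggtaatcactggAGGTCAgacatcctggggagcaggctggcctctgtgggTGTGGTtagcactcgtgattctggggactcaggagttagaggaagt
Btla (chr16:45224087-45224336, plus strand): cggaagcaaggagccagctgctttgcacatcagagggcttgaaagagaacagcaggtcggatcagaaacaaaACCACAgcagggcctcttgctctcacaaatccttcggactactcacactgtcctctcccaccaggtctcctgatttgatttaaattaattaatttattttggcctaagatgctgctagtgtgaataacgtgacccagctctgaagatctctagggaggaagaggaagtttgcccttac
The Pdcd1 window held GGAAA at 2 places and AGGTCA at 1, both read on the opposite strand. Havcr2 held AGGTCA and TGTGGT once each, and Btla held TGTGGT alone. Of the 10 windows, GGAAA lay in 6, TGTGGT in 6 and AGGTCA in 2. In all 32851 promoter windows of the table these letters were present in 61.3, 16.8 and 16.3%, and a match only describes the sequence.

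All 10 genes were well above background on both CD8+ T arrays, by all 15 probes. In Sipa1-/- CD8+ T cells 8 of the 10 gave a higher signal than in Wt and 2 a lower one, with a median log2 ratio of 0.70 against -0.02 over all 14323 genes measured on both arrays. Pdcd1 and Entpd1 passed 2-fold, 2 of 10 genes, both upward. Of all genes 4.06% passed it in either direction, 2.66% upward and 1.4% downward. With the arrays set to their medians instead, the ratios of Pdcd1 and Entpd1 came to 0.95 and 0.88, just short of 2-fold. In sorted bulk RNA a larger share of cells with a transcript and more transcript per cell cannot be told apart.

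Pdcd1 encodes PD-1, the receptor for PD-L1 and PD-L2 that recruits the phosphatase SHP-2. Its probe read 2.03 on the Wt and 3.13 on the Sipa1-/- CD8+ T array, and -4.60 and -3.58 on the Wt and Sipa1-/- MSC arrays. The knockout was the higher in both sorts, and both T-cell values lay above both MSC values. In CD8+ T cells the ratio was 2.14-fold (log2 1.10), and 2.17% of all genes had a ratio as high. It ranged from 0.95 to 1.23 on the log2 scale over the 8 other ways of processing the arrays.

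Lag3, a CD4-like receptor that binds MHC class II, had 2 probes. The first read 1.11 in Wt and 2.08 in Sipa1-/- CD8+ T cells, against -5.01 and -2.87 in Wt and Sipa1-/- MSCs. The second read -0.72 and 0.11 in CD8+ T cells and -6.42 and -4.66 in MSCs, where the Wt value was not well above background. Both probes placed the knockout higher in both sorts, and their CD8+ T ratios of 0.97 and 0.82 averaged 0.90, or 1.87-fold.

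Havcr2 encodes TIM-3, which marks terminally exhausted T cells and is also found on myeloid cells. It read 1.23 and 2.08 in Wt and Sipa1-/- CD8+ T cells, and -3.76 and -2.61 in the respective MSCs, so again the knockout was the higher of each pair. The CD8+ T ratio was 1.80-fold (log2 0.85), a value that 3.69% of all genes reached. Tigit, a receptor for the nectin-like protein CD155, read -1.13 in Wt and -0.36 in Sipa1-/- CD8+ T cells, a ratio of 1.70-fold (log2 0.77). On the MSC arrays it read -7.56 and -7.00 and was not well above background on either.

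Ctla4 competes with CD28 for CD80 and CD86. Its signal hardly separated the genotypes in CD8+ T cells, at -0.99 in Wt and -0.72 in Sipa1-/- (log2 ratio 0.27, 1.21-fold), a ratio that 16.3% of all genes reached. It read -5.66 and -4.75 in Wt and Sipa1-/- MSCs.

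Cd160 and Btla, which share the ligand HVEM (Tnfrsf14), went the other way from the rest. Cd160 read 0.11 in Wt and -0.19 in Sipa1-/- CD8+ T cells (log2 ratio -0.30), and -6.36 and -6.79 in MSCs, where it was not well above background. The 2 Btla probes read 0.64 and 2.43 in Wt and 0.47 and 2.21 in Sipa1-/- CD8+ T cells, with a mean log2 ratio of -0.20. In MSCs the same probes read -3.89 and -2.10 in Wt and -4.90 and -3.03 in the knockout. Both Btla probes thus stood lower in the knockout of either sort, by a small amount in CD8+ T cells and by close to 2-fold in MSCs.

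Entpd1 had a pattern unlike that of the receptors. Its first probe read -0.28 in Wt and 0.87 in Sipa1-/- CD8+ T cells and 0.24 and 0.14 in Wt and Sipa1-/- MSCs, and its second -1.68, -0.79, -1.50 and -1.65 in the same order. By both probes the Sipa1-/- CD8+ T array was the highest and the Wt CD8+ T array the lowest of the 4, with the MSC arrays between them. The CD8+ T ratio was 2.03-fold (log2 1.02, probes 1.15 and 0.89), and the MSC ratio was -0.12.

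Both transcription factors gave a higher signal in Sipa1-/- CD8+ T cells. Tox, which programs exhaustion, read -1.67 and 1.27 by its 2 probes in Wt and -1.25 and 1.63 in Sipa1-/- CD8+ T cells, a mean log2 ratio of 0.39 with probes at 0.36 and 0.43. Nr4a2, an orphan nuclear receptor induced by T-cell receptor signalling but also by many stimuli in stromal cells, read 1.66 and 2.00 in Wt and 2.52 and 2.40 in Sipa1-/- CD8+ T cells. Its probes placed the ratio at 0.86 and 0.39, so the mean of 0.63 is less certain than that of the genes whose probes lay closer together.

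**Figure D1:**
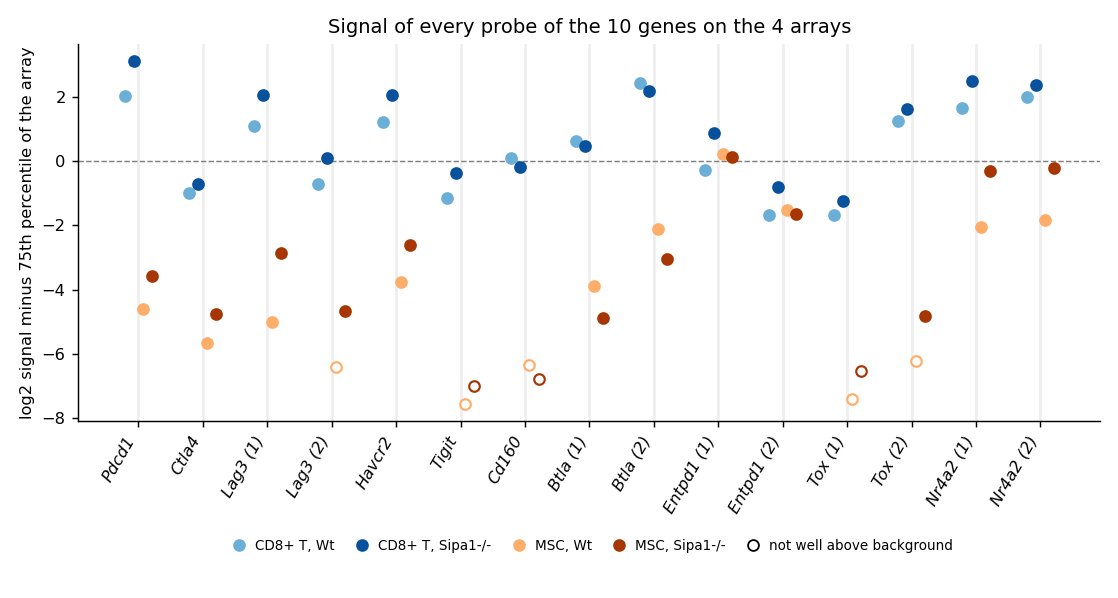
Log2 signal relative to the 75th percentile of the array (vertical axis) for each of the 15 probes of the 10 genes, with 1 point per array coloured by sort and genotype and open points for values not well above background. The CD8+ T points lie above the MSC points for every probe but those of Entpd1, and the 5 open points of Wt MSCs and 3 of Sipa1-/- MSCs belong to Lag3, Tigit, Cd160 and Tox.

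Other cells' markers differed between the 2 CD8+ T arrays. The 12 T-cell markers had log2 ratios of -0.20 to 0.36 and a median of 0.01, with none past 2-fold, where 4.06% of all genes were. All 10 fibroblast markers were at least 2-fold higher in the Sipa1-/- sort (median 1.71, sums of 42.9 and 133), 6 of 9 granulocyte markers were at least 2-fold lower (sums of 631 and 334), and all 6 NK markers were lower (median -0.55, sums of 5.48 and 3.48). Among cell types that make CD39 or TIM-3, dendritic cell markers were higher in 6 of 7 (median 0.26, sums of 12.4 and 14.8), with Xcr1, named after its value was seen, at 2.12. Macrophage markers had a median of 0.11 (12 measured, sums of 30.0 and 23.2), endothelial markers -0.18 (7 measured, sums of 2.59 and 2.77, Tek not well above background in Wt) and B-lineage markers -0.17 (10 measured, sums of 29.6 and 21.1, Rag1 not well above background on either). Markers of CD4+ and regulatory T cells had a median of 0.49 over 7 genes (sums of 1.83 and 2.66), with Il10 at 1.67 and Ccr8 at 1.41 but Foxp3 at -0.37 and Cd4 at -0.26. Erythroid markers had a median of -1.09 over 5 and pericyte markers of -0.09 over 6. The part of these cells in the receptor ratios was not tested.

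In MSCs the receptors were dim. In Wt, 7 of the 10 genes had a probe well above background, and in Sipa1-/- 8, since Tox passed on that array alone. Over the 7 genes measured on both arrays the median log2 ratio of Sipa1-/- over Wt was 1.02, against 0.04 over 15283 genes. Pdcd1, Lag3, Havcr2 and Nr4a2 passed 2-fold upward and no gene downward. Of all genes 30.7% passed it, 19.3% upward and 11.3% downward. A 2-fold difference was therefore far more common between the MSC arrays than between the CD8+ T arrays.

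Lag3 differed most of the 7, by 4.42-fold (log2 2.15) by its first probe and at least 2.29-fold by its second, whose Wt signal could only be bounded. Nr4a2, well above background by both probes on both MSC arrays, read -2.04 and -1.83 in Wt and -0.31 and -0.20 in Sipa1-/-, a ratio of 3.20-fold (log2 1.68). Havcr2 was 2.21-fold and Pdcd1 2.03-fold higher, at log2 ratios of 1.15 and 1.02 that 16.6 and 18.9% of all genes reached. Ctla4 stood at 0.91, Entpd1 at -0.12 and Btla at -0.97, and Tox was at least 2.06-fold higher by its brighter probe. These dim signals are less precise than those of the CD8+ T arrays. Probes printed at 10 spots had a median spot SD of 0.04 on each array, but on the Wt MSC array the 1 such probe at -5.60, near the level of Ctla4, had an SD of 0.69 and those at -5.26 and -4.26, on either side of Pdcd1 and Lag3, of 0.25 and 0.18. With normexp background correction, which compresses dim signals, the MSC ratios of Pdcd1, Havcr2 and Lag3 came to 0.26, 0.48 and 0.78 and that of Nr4a2 to 1.32.

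The T-cell markers of the MSC sort differed in both directions. Of 11 measured, 3 passed 2-fold upward in Sipa1-/- MSCs and 4 downward, with a median of 0.56. The CD3 and CD8 chains were higher, with Cd3g at 1.43, Cd8b1 at 1.31, Cd3d at 1.10 and Cd3e at 0.66, while Cd2 (-3.52), Lat (-2.69), Zap70 (-1.59) and Lck (-1.07), which are not restricted to T cells, were lower. Cd8a was not well above background on the Wt array and read by 1 of its 2 probes on the other. B-lineage markers were lower in all 10 genes measured, with a median of -4.19. Fibroblast markers had a median of 1.21 over 8, macrophage markers of 0.92 over 12, CD4+ and regulatory T-cell markers of 0.93 over 6 and endothelial markers of 0.70 over 6. NK, dendritic cell and granulocyte markers stood at 0.28, 0.25 and 0.22, pericyte markers at 0.62 and erythroid markers at -0.21. The share of the receptor ratios in MSCs that goes with T-cell RNA was not tested.

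**Figure D2:**
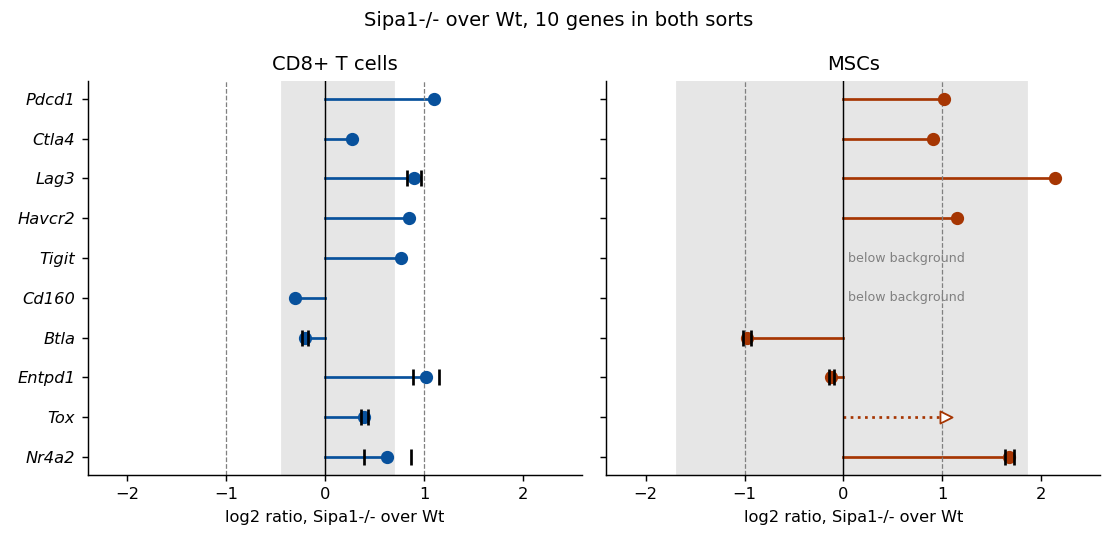
Log2 ratio of Sipa1-/- over Wt for the 10 genes in CD8+ T cells (left) and MSCs (right), each from 1 pair of arrays. Filled points are means over probes, black ticks single probes, the open triangle a lower bound, grey bands the 5th to 95th percentile of all genes and dashed lines 2-fold; Pdcd1, Entpd1, Lag3, Havcr2 and Tigit lie above the band in CD8+ T cells, and in MSCs only Lag3 does.

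The CD8+ T sort held far more of these transcripts than the MSC sort, apart from Entpd1. In Wt tumors 6 of the 7 genes measured on both arrays were at least 2-fold higher in CD8+ T cells and none that much lower, where 30.1% of all 14210 genes passed 2-fold, 12.8% in favour of CD8+ T cells and 17.3% of MSCs. In Sipa1-/- tumors it was 7 of 8, against 40.5% of 14279 genes, 18.6% in favour of CD8+ T cells and 21.9% of MSCs. Pdcd1 was 99.3-fold higher in Wt and 105-fold in Sipa1-/- tumors. Lag3 was 69.5-fold and 29.0-fold, Havcr2 31.8-fold and 25.9-fold, Ctla4 25.4-fold and 16.4-fold, and Btla 23.1-fold and 39.5-fold higher. These folds rest on dim MSC signals: with normexp Pdcd1 came to 22.4-fold and 39.0-fold, Lag3 to 14.3-fold and 10.4-fold, and Ctla4 to 4.22-fold and 4.45-fold. For Lag3 only the first probe was used in Wt and both in Sipa1-/- tumors. That first probe alone gave log2 ratios of 6.12 and 4.95. Genes at background in MSCs gave bounds. Tox was at least 140-fold higher in Wt tumors by its brighter probe and at least 18.2-fold by the other. Cd160 was at least 62.9-fold and 48.5-fold, and Tigit at least 26.6-fold and 43.0-fold higher in Wt and Sipa1-/- tumors. In Sipa1-/- tumors the brighter Tox probe, measured on both arrays, was 87.3-fold higher (20.3-fold with normexp). The other Tox probe was at least 23.3-fold higher there. Nr4a2 differed less, by 13.6-fold and 6.56-fold, and Entpd1 was 1.27-fold lower in Wt and 1.74-fold higher in Sipa1-/- CD8+ T cells. For scale, the T-cell markers had median log2 ratios of 6.78 and 6.90 between the sorts, with Cd3e at 6.78 and 6.28, while the 10 genes had medians of 4.67 over 7 and 4.78 over 8. Those medians leave out the genes at background in MSCs, and with the flags required on 1 array only they were 5.45 and 5.08.

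**Figure D3:**
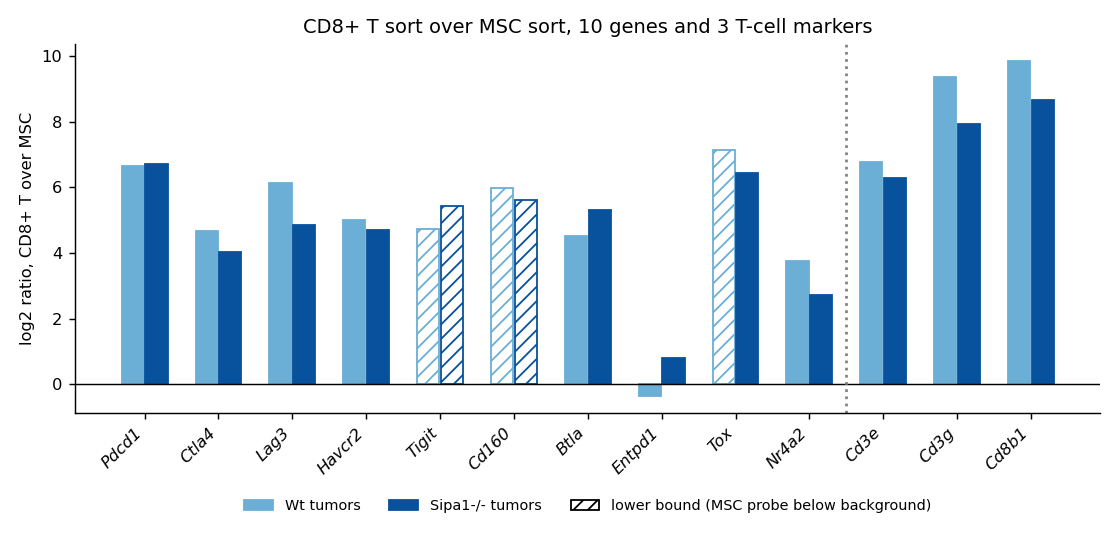
Log2 ratio of the CD8+ T sort over the MSC sort in Wt (light) and Sipa1-/- (dark) tumors for the 10 genes and the T-cell markers Cd3e, Cd3g and Cd8b1, with hatched bars for lower bounds. Pdcd1 stands at 6.63 and 6.71 (4.49 and 5.29 with normexp, its MSC signal being dim), and Nr4a2 and Entpd1 stand lowest.

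Of the ligands of these receptors, none of 14 measured in CD8+ T cells was past 2-fold, where 4.06% of all genes were, and the median was 0.17. Between the sorts, 9 of 14 in Wt and 8 of 14 in Sipa1-/- tumors were at least 2-fold higher in CD8+ T cells than in MSCs. That much lower were 3 and 1. Of all genes 12.8 and 18.6% were that much higher and 17.3 and 21.9% lower. The ligand signals summed to 346 and 424 on the Wt and Sipa1-/- CD8+ T arrays, against 70.5 and 102 on the MSC arrays. In MSCs 8 of 15 passed 2-fold upward in Sipa1-/- and 3 downward, with a median of 1.08, where 19.3% of all genes passed upward and 11.3% downward. The PD-1 ligands Cd274 (PD-L1) and Pdcd1lg2 (PD-L2) stood at 0.67 and 1.24, from -1.38 to -0.71 and from -4.31 to -3.07. Pvr (CD155), the main ligand of TIGIT, read 0.47 in Wt and 2.18 in Sipa1-/- MSCs (log2 ratio 1.71, by 1 of its 2 probes). The nectins Nectin2 and Nectin3, which also bind in this family, had ratios of 1.17 and 1.39 (Nectin3 by 2 of its 3 probes). The MHC class II chains that LAG-3 binds, H2-Aa, H2-Ab1 and H2-Eb1, stood at 1.08, 1.09 and 1.30. The fibrinogen-like LAG-3 ligand Fgl1 was well above background on the Sipa1-/- MSC array alone, at -4.09. The TIM-3 ligands Lgals9, Ceacam1 and Hmgb1 were lower, at -1.15, -1.09 and -2.12. Lgals3, a galectin bound by LAG-3, was higher at 1.33. Of the CTLA-4 ligands, Cd80 stood at 0.70. Cd86 stood at -0.52 by the 1 of its 3 probes that passed on both arrays. The mean of all 3 Cd86 probes, flags aside, read -4.85 in Wt and -4.65 in Sipa1-/- MSCs, so its direction is not settled. Tnfrsf14, the HVEM shared by Cd160 and Btla, stood at 0.11.

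Other genes around the receptors were compared in lists. The genes that end a list's range were named after their values were seen. Among 10 other inhibitory receptors none was past 2-fold in CD8+ T cells, where 4.06% of all genes were. Their median was 0.12, from Klrd1 at -0.45 to Klrg1, a marker of terminal effectors, at 0.77. In MSCs Klrg1 was 1.69 (by 1 of its 2 probes) and Cd244a -1.23, and the median of 9 was -0.06. Costimulatory receptors had a median of 0.18 over 7 in CD8+ T cells, none past 2-fold (4.06% of all genes), and of 1.19 over 5 in MSCs. There Tnfrsf9 (4-1BB), which T cells and some stromal cells express on activation, read -3.21 in Wt and 0.75 in Sipa1-/-. This log2 ratio of 3.96 was the largest positive ratio among the lists of related genes. It rests on 1 of 2 Tnfrsf9 probes, the other not being well above background in Wt MSCs. Icos stood at 1.70 and Cd28 at 1.19.

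A list of 12 signalling genes, among them phosphatases, ubiquitin ligases, kinases and adaptors, showed no 2-fold difference in CD8+ T cells. Their median was 0.04, and 4.06% of all genes were past 2-fold. In MSCs 5 of 11 were at least 2-fold lower, as were 11.3% of all genes, led by Dusp2 (-3.40), Inpp5d, which encodes SHIP-1 (-3.02), and Dgka (-2.27). These genes are active in B-lineage cells too, whose markers were lower on the same array, and their part in these ratios was not tested. In the list of adenosine genes, Nt5e (CD73, which makes adenosine from AMP) differed by -0.21 in CD8+ T cells and by 1.79 in MSCs, and Enpp1 by -0.01 and 2.28. Adora2b, an adenosine receptor, stood at 1.21 in MSCs and Ada, which destroys adenosine, at -1.57.

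Further transcription factors, linked to exhaustion or related to Tox or Nr4a2, gave a median of 0.21 over 15 genes in CD8+ T cells. Only Ikzf2 (Helios, -1.01) and the Tox relative Tox4 (2.05) were past 2-fold, as were 4.06% of all genes. The 2 Tox4 probes disagreed, at 3.95 and 0.16. Prdm1 (Blimp-1), next in size, was 0.91. The relatives of Nr4a2, Nr4a1 and Nr4a3, stood at -0.33 and 0.05 in CD8+ T cells and at 1.67 and 0.24 in MSCs. In MSCs 7 of 15 were at least 2-fold higher, as were 19.3% of all genes, among them Tox2 (1.82), Tox4 (1.79, probes again 3.44 and 0.14) and Id2 (1.77), and Irf4 was lower at -2.94.

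Genes of the progenitor-like T cells, which keep Tcf7 and self-renew, were lower in 8 of 10 cases in Sipa1-/- CD8+ T cells, by small amounts. The median was -0.16, Tcf7 stood at -0.21 and Slamf6 at -0.52. The Slamf6 (-4.63), Lef1 (-4.61), Il7r (-4.16) and Cxcr5 (-3.67) ratios in MSCs lay in the same range as those of the B-lineage markers, and these genes are also used by B-lineage cells. Cytotoxic effector genes were higher in 9 of 12 cases in CD8+ T cells, with none past 2-fold, where 4.06% of all genes were. Their median was 0.23, from Tnf at -0.63 to Ifng at 0.87 and Gzmk at 0.85. In MSCs 6 of 10 measured were higher and 4 lower, with a median of 0.44. There 3 passed 2-fold upward, Gzmb (1.59), Ccl5 (1.41) and Ifng (1.10), and 0 downward, where 19.3% of all genes passed upward and 11.3% downward.

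**Figure D4:**
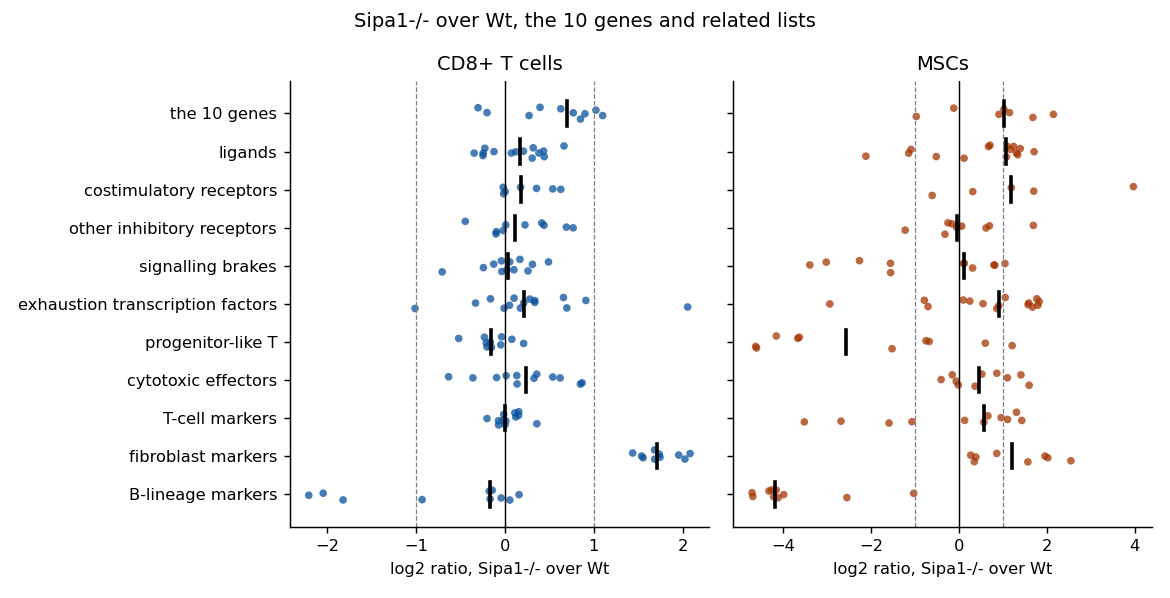
Log2 ratio of Sipa1-/- over Wt in CD8+ T cells (left) and MSCs (right), with 1 point per measured gene, a black bar at the median of each list and dashed lines at 2-fold. The 10 genes have a median of 0.70 in CD8+ T cells against 0.12 for other inhibitory receptors and 0.01 for T-cell markers, while fibroblast markers stand at 1.71 there and B-lineage markers at -4.19 in MSCs.

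The genes whose pattern over the 4 arrays was most like that of Pdcd1, Havcr2 and Entpd1 were found by the root-mean-square difference of centred log2 values among 13742 genes measured on all arrays. For Pdcd1 these were Ifng (0.21), Cxcr6 (0.29) and Cd5 (0.30), and 14 genes lay within 0.50. For Havcr2 they were Dok2 (0.17), Tesc (0.27) and Rgs1 (0.27), with 31 genes within 0.50. For Entpd1 they were Mtmr9 (0.11), Gm6402 (0.12) and Tlx2 (0.13), and 5380 genes lay within 0.50, its values having spread little over the arrays. With 4 arrays such likeness is a description only.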

How the data were processed

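Total RNA of the 4 sorted populations had been labelled with Cy3 and hybridised to SurePrint G3 Mouse v2 8x60K arrays. The deposited files hold the scanner's intensity values, which the authors obtained with Agilent Feature Extraction (version 12.0.3.1 per the file headers, 9.1 per the submitters' processing notes), background-subtracted and not scaled between arrays. The deposited series table holds the same intensities multiplied by 1 constant per array and was used as an alternative. All 4 arrays were on 1 slide.

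Groups came from the sample titles, 1 array each. Accessions were matched to RefSeq symbols (57.6% of non-control spots). The processed signal was taken to log2 and the 75th percentile of each array's non-control spots was subtracted. Spots of a probe, then probes of a gene, were averaged. A probe entered a ratio if it passed, on both arrays, the study's flags: not saturated, uniform spot and background, significant, and well above background. A summed marker level adds the signals of a list's genes, in units of the 75th percentile. Where 1 array of a pair was not well above background, the brighter value was set against the lowest signal called well above background on the dimmer array, or the dim probe's own if higher, and written as "at least". A log2 ratio of 1 was counted as 2-fold. No p-value was computed, since each condition had 1 array, and the number of arrays limits the precision. Scripts were tested on simulated data with known folds.

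The 10 genes, the 8 lists of related genes and the 11 marker lists were chosen with earlier results of these data known. Named were all 10 genes, Sipa1, the direct ligands, up to 4 genes per list of related genes past 2-fold in a comparison, and the 3 genes most like Pdcd1, Havcr2 and Entpd1. Single genes of the marker lists, those at the ends of a list's range and others outside this rule were named after their values were seen. In all, 8 alternatives were run: normexp (limma 3.58.1, R 4.3.3, offset 50) on the median spot and background signals, median shift, quantile normalization, the series table, flags on 1 array, no flags, only genes above the median signal, and 1 brightest probe per gene. Python 3.11.15 with numpy 2.4.6, pandas 2.3.3 and matplotlib 3.10.9 was used.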

Additional observations from a re-analysis of the deposited data

Results flagged for a closer look

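Entpd1 stood on opposite sides of 0 in the 2 sorts: the log2 ratio of Sipa1-/- over Wt was 1.02 in CD8+ T cells and -0.12 in MSCs, each by both probes. The difference between the sorts was not tested, since each ratio rests on 1 pair of arrays, and the MSC value was 0.08 with the series table.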

How the results depend on the processing

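With 1 array per condition, no paired analysis was possible and no array was left out. Of the log2 ratios of the 10 genes between genotypes, those in CD8+ T cells kept their direction under each of the 8 alternatives that gave a value, and those in MSCs did except Entpd1, at 0.08 with the series table.

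By median shift, 0 of the 10 genes (284 of all 14323) were at least 2-fold higher in Sipa1-/- CD8+ T cells. In MSCs 1 of 7 (2176 of all 15283) was at least 2-fold lower, also 1 by quantile normalization (1870). Normexp gave 1 that much higher in each sort (108 and 1827 of all), quantile normalization 1 in CD8+ T cells (300). Above the median signal CD8+ T cells gave 1 and MSCs 0, where none of the 10 was left. CD8+ T cells over MSCs gave 1 of 1 in Wt and 3 of 3 in Sipa1-/- tumors.

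The median ratio of the 10 genes in CD8+ T cells was 0.58 by the brightest probe, 0.63 in genes above the median signal, 0.55 by median shift, 0.57 by normexp and 0.83 by the series table. In MSCs it was 1.08 with flags on 1 array, 0.88 by median shift, 0.26 by normexp, 0.91 by quantile normalization and 1.23 by the series table. For CD8+ T cells over MSCs, in Wt and Sipa1-/- tumors, it was 5.45 and 5.08 with flags on 1 array or no flags. It was 4.90 and 5.00 by median shift, 3.54 and 3.58 by normexp, 4.80 and 4.92 by quantile normalization, and 4.22 and 4.25 by the series table. Above the median signal it was 3.77 in Wt, from Nr4a2 alone, and 4.69 in Sipa1-/- tumors, over 3 genes. The adenosine list in MSCs turned from 1.21 to -1.57 in genes above the median signal, where Ada alone remained. The causes were not tested.

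Between genotypes the median of all genes moved from -0.02 to -0.17 in CD8+ T cells and from 0.04 to -0.10 in MSCs by median shift, and to 0.11 and 0.25 by the series table. By median shift the CD8+ T medians of T-cell markers, macrophage markers, other inhibitory receptors and signalling genes lay below 0 (lowest -0.14). Of genes past 2-fold, the share higher was 65.5% in CD8+ T cells (52.4% by normexp, 52.5% by median shift, 76.3% by the series table) and 63.0% in MSCs (74.1% by the series table). For CD8+ T cells over MSCs it was 42.6% in Wt and 46.0% in Sipa1-/- tumors, against 54.5 and 57.1% by median shift and 23.4 and 23.8% by the series table. The CD8+ T counts of 381 genes higher and 201 lower became 108 and 98 by normexp, 66 and 70 above the median signal, 681 and 371 with flags on 1 array and 1059 and 633 with no flags. By the series table, the Wt count of 1820 genes higher in CD8+ T cells than in MSCs became 1081, and the Sipa1-/- count of 2663 became 1357. In genes above the median signal, the counts of 2954 and 1734 in MSCs became 1308 and 902, and by normexp 1827 and 1190. For CD8+ T cells over MSCs, genes above the median signal gave 862 higher and 859 lower in Wt (from 1820 and 2454) and 1378 and 1306 in Sipa1-/- tumors (from 2663 and 3125). The lower counts there became 3897 and 4739 with flags on 1 array and 4185 and 5019 with no flags.

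The 75th percentile lay 16.4 to 19.7 times above the median background, and signals near -5.8 in MSCs, where Ctla4 and parts of Lag3, Tigit, Cd160 and Tox lay, are at the limit of detection.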
